A study of Mus musculus with 6 samples.

Results

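The 44 collagen genes measured on the arrays were every gene with a symbol of the form Col, a number, a and a number and a probe set tied to 1 gene symbol. They were 44 of the 19938 genes with such a probe set and covered 27 collagen types. Of these, 42 had 1 such probe set, and Col6a5 and Col6a6 each had more than 1 and were read from the probe set with the highest mean. Expression was measured in C2C12 myotubes, the fused muscle cells that a mouse myoblast line forms when serum is lowered, on 6 arrays with 1 array for each condition. The conditions were Plin2 siRNA with BSA alone, oleate or palmitate, and scrambled control siRNA with BSA alone, oleate or palmitate. All cells were grown in 10% serum on plates with a matrix gel coating, differentiated in 2% serum for a week and transfected with siRNA at 10 nM, and the fatty acids were given bound to albumin (BSA) at 200 µM for 20 h. The arrays read mRNA and not the protein in the matrix.

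Collagens are proteins of the extracellular matrix in which chains wind into a triple helix. Fibrillar collagens give tissues their tensile strength, type IV collagen forms the sheet of the basement membrane that wraps each muscle fibre, and type VI collagen forms beaded filaments that link the fibre surface to the surrounding matrix. Other members attach to fibrils (the FACIT collagens), span the cell membrane, or carry a C-terminal part that is released as an antiangiogenic fragment (the multiplexins). Plin2, the target of the siRNA, coats lipid droplets.

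Values are log2 expression per probe set, and a difference of 1 is a doubling. Probe sets bind their targets with different strength, so the signals of different genes are not amounts of RNA, and each gene is compared with itself. A change below is the mean of the 3 differences of Plin2 siRNA minus scrambled siRNA, 1 in each treatment. It was called at an adjusted p below 0.05 in limma, with Benjamini-Hochberg adjustment over 21789 named probe sets. Plin2 was 6.95, 7.63 and 7.45 in BSA, oleate and palmitate with Plin2 siRNA, against 9.29, 10.03 and 10.10 with scrambled siRNA, a change of -2.47 (SE 0.08, adjusted p = 2.32e-08). Array medians were 5.78 to 5.83, and the correlation between arrays across named probe sets was 0.995 to 0.997 where the siRNA was shared and 0.989 to 0.993 where it was not. The labels do not tell whether these were separate cultures, so the p-values cover the spread among these 6 arrays, which may be technical, and no more.

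Of the 44 collagen genes, 29 had a mean above 5.80, the median of all named probe sets, and 15 lay below it. Signals in the highest 10% of named probe sets came from 7 genes. These were Col3a1, Col1a2, Col5a2 and Col1a1 of the fibrillar class, Col8a1 of the short-chain network collagens, the FACIT Col12a1 and the type VI chain Col6a1. These are positions of signal and not amounts of RNA. All 8 measured markers of myotubes, the labelled cells, had means of 9.61 or more.

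Plin2 siRNA changed 10 of the 44 collagen genes, most of them network, filament or membrane collagens, and 0 of the 11 fibrillar collagens passed the test. The classes are small, and differences between them were not tested. The 10 were 22.7% of the collagens, beside 17.1% of all named probe sets that were called. The genes that rose were Col25a1, Col4a5, Col6a1, Col19a1, Col4a1, Col4a2 and Col6a2, 7 in all, beside 8.5% of all named probe sets called upwards. The genes that fell were Col18a1, Col6a3 and Col8a1, 3 in all, beside 8.58% called downwards. All 10 had 3 Plin2 siRNA arrays on 1 side of the 3 scrambled arrays. Such separation was seen in 14 collagen genes, 9 higher and 5 lower, and in 30.3% of all named probe sets. The other 4 were Col15a1 and Col26a1, higher in Plin2 siRNA, and Col17a1 and Col23a1, lower.

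Split by level, 8 of the 29 collagens above the median were called (27.6%), beside 30.4% of all named probe sets above it. Of the 15 below it, 2 were called (13.3%), beside 3.73% of all. The median change of the 44 genes was 0.05, and that of all named probe sets was 0.01. Calls that held in all 12 alternative settings were 4 of the 10, those of Col18a1, Col25a1, Col6a1 and Col6a3. With no intensity trend 6 were called, and with unnamed probe sets in the fit 4. Calls over all probe sets fell from 3721 to 2403 and 2159 in these settings. Leaving out the Plin2 siRNA BSA array left 5 of the 10 called, and so did leaving out the scrambled BSA array. Calls over all probe sets were then 2213 and 2215. Once an array of a treatment is left out, the other no longer bears on the siRNA change in the additive fit. Either array of a treatment left out therefore gave the same changes, and such runs are the same check. The 12 settings are thus not 12 separate checks.

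Some markers of muscle cells changed with the siRNA. Of 8 myotube markers 6 fell, Myog, Myh8, Tnnt3, Myh3, Des and Ckm, and 1, the transcription factor Mef2c, rose, so that 87.5% were called, beside the 30.4% of named probe sets above the median level. The log2 of their summed level was 15.05 to 15.09 with Plin2 siRNA and 15.17 to 15.34 with scrambled siRNA. Of 3 myoblast markers 2 rose, Myf5 and Myod1, and the summed level was 11.83 to 11.98 with Plin2 siRNA and 11.37 to 11.49 with scrambled siRNA. In the lists of fibroblasts, adipocytes, osteoblasts, chondrocytes and tendon cells 0.0% to 33.3% were called, beside 17.1% of all named probe sets and 30.4% of those above the median level. Of 6 fibroblast markers 2 rose, Pdgfra by 0.36 and Pdgfrb by 0.35, and 4 were not called, with changes of 0.10 for Thy1, 0.17 for Tcf21, -0.53 for Dpt and -0.16 for Pi16. Their summed level was 10.30 to 10.42 with Plin2 siRNA and 9.95 to 10.17 with scrambled siRNA, and Pdgfrb, with a mean of 9.95, makes up most of it. The chondrocyte marker Sox9 fell, 1 of 6, and its list summed to 7.99 to 8.09 with Plin2 siRNA and 8.56 to 8.65 with scrambled siRNA. Most of that sum came from 1 marker with a mean of 7.89, the only 1 above the median level. The median change of the 6 was -0.005, with 3 upwards and 3 downwards. The tendon marker Scx fell, 1 of 4, and its list summed to 10.71 to 10.82 with Plin2 siRNA and 10.82 to 11.19 with scrambled siRNA. Most of that sum came from 1 marker with a mean of 10.78. The median change of the 4 was -0.08, with 1 upwards and 3 downwards. Of 6 adipocyte and 4 osteoblast markers 0 were called. The part of these shifts in the collagen changes was not tested, and in such bulk samples fewer cells of a type and less RNA per cell cannot be told apart.

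**Figure D1:**
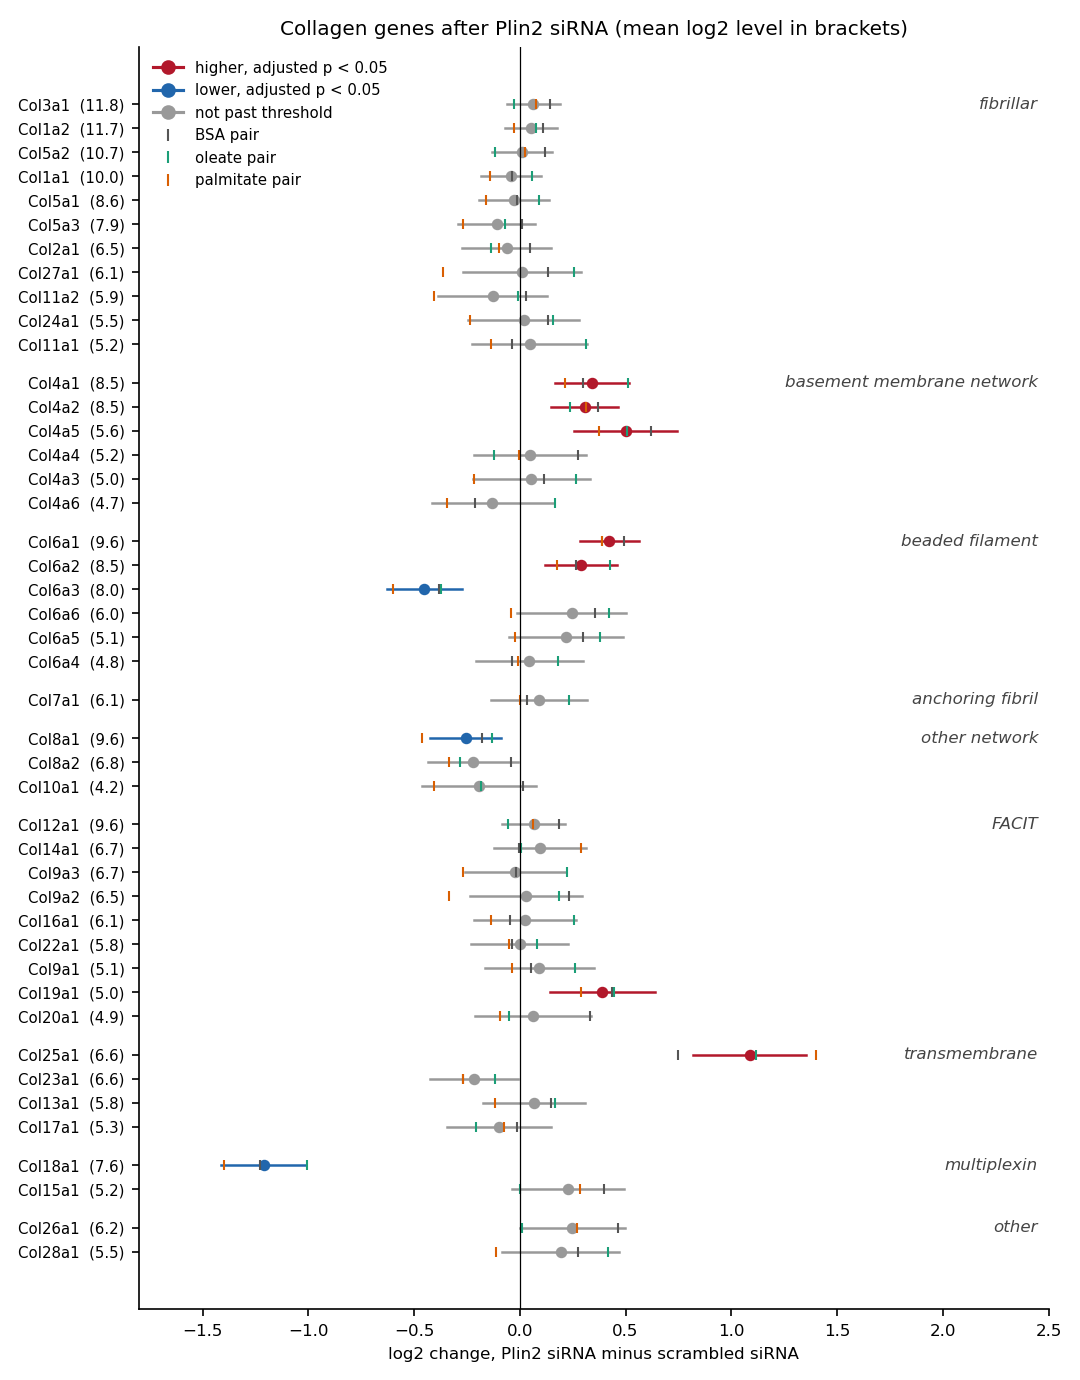
Log2 change of the 44 collagen genes, Plin2 siRNA minus scrambled siRNA, by structural class, with the mean log2 level in brackets. Dots are the fitted changes, lines their 95% confidence intervals and ticks the differences in BSA, oleate and palmitate; Col25a1 at 1.09 and Col18a1 at -1.21 lie furthest from 0, and the 11 fibrillar genes lie between -0.13 and 0.06.

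Fibrillar collagens had 0 of 11 genes called, beside 17.1% of all named probe sets and 30.4% of those above the median level. Their changes ran from -0.13 to 0.06 with a median of 0.01. The lowest adjusted p among them was 0.478. In 0 of them were the 2 siRNAs separated, beside 30.3% of all named probe sets. Col3a1, the chain of type III collagen found with type I in the connective tissue of muscle, was 11.85, 11.89 and 11.89 with Plin2 siRNA and 11.71, 11.92 and 11.81 with scrambled siRNA. Its change was 0.06, with a 95% interval of -0.06 to 0.19. Col1a1 and Col1a2 encode the chains of type I collagen, the main collagen of tendon, bone and scar. Col1a1 was 9.94, 10.15 and 9.85 with Plin2 siRNA, against 9.98, 10.09 and 10.00, and the interval of its change was -0.18 to 0.10. Col1a2 was 11.72, 11.74 and 11.70, against 11.61, 11.67 and 11.73, with an interval of -0.07 to 0.18. For both type I chains the siRNA groups overlapped, and an increase of 0.18 or more on the log2 scale lay outside both intervals. The change of Col1a1 minus that of Col1a2 was -0.09 ± 0.07 (SD, n = 3 pairs; exact unpaired permutation p = 0.3).

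Type V collagen sits inside type I fibrils and helps to start their assembly. Its chain Col5a1 was 8.59, 8.65 and 8.58 with Plin2 siRNA and 8.61, 8.56 and 8.74 with scrambled siRNA (change -0.03, 95% interval -0.19 to 0.14). Col5a2 was 10.67, 10.59 and 10.71, against 10.55, 10.71 and 10.69 (change 0.01, interval -0.13 to 0.15). Col5a3, a less common chain of the same type, was 7.92, 8.03 and 7.70, against 7.91, 8.10 and 7.97 (change -0.11, interval -0.29 to 0.07). All 3 had overlapping siRNA groups. The change of Col5a1 minus that of Col5a2 was -0.04 ± 0.21 (SD, n = 3 pairs; exact unpaired permutation p = 1.0). Type XI chains form thin fibrils with type II collagen in cartilage. Col11a1 was 5.21, 5.36 and 5.18, against 5.25, 5.05 and 5.31, and Col11a2 was 5.90, 5.87 and 5.75, against 5.87, 5.88 and 6.16, with adjusted p of 0.884 and 0.574. Col2a1, the chain of cartilage type II collagen, and the minor fibrillar genes Col24a1 and Col27a1 had changes of -0.06, 0.02 and 0.01, and their adjusted p was 0.772 or more.

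Type IV collagen genes had 3 of 6 called, all upwards, and a median change of 0.18. Of all named probe sets 17.1% were called, 8.5% upwards, with 30.4% called above the median level and 3.73% below it. Type IV genes lay on both sides of that level. The calls of Col4a1, Col4a2 and Col4a5 held in 8, 8 and 9 of the 12 alternative settings. Col4a1 and Col4a2 encode the partner chains of the type IV collagen found in nearly every basement membrane. In mice they are read in opposite directions from a shared promoter. In the GRCm38.p6 assembly of RefSeq their start sites on chromosome 8 were 21 bases apart. The 2 genes overlap there, with a gap of -85 bases, and each start lies within the other gene. Because the 2 genes moved together, both windows of 300 bases are shown, from 250 bases before to 50 bases after each start. They share 78 bases. The Col4a1 window is chr8:11312777-11313076 on the minus strand and the Col4a2 window is chr8:11312555-11312854 on the plus strand. Capitals mark the CCAAT box (CCAAT or its reverse ATTGG), the GC box (GGGCGG or CCGCCC) and the TATA box (TATAAA or TTTATA), searched on both strands.
Col4a1: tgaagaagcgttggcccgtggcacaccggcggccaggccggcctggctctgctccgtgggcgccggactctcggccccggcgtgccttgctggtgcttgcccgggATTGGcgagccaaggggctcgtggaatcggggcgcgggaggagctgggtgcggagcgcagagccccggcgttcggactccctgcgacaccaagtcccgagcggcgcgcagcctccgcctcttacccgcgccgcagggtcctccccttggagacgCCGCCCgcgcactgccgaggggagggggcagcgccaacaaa
Col4a2: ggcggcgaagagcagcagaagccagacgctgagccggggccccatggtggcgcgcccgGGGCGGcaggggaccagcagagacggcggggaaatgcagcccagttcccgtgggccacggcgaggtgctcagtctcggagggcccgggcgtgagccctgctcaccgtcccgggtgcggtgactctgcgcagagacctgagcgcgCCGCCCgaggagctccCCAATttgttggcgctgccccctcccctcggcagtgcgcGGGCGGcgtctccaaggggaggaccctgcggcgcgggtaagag

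Col4a1 was 8.59, 8.88 and 8.56 with Plin2 siRNA in BSA, oleate and palmitate, against 8.29, 8.37 and 8.34 with scrambled siRNA. It rose by 0.34 (SE 0.08, adjusted p = 0.0117). Col4a2 was 8.59, 8.64 and 8.61, against 8.22, 8.40 and 8.29, and rose by 0.31 (SE 0.07, adjusted p = 0.0123). In both genes every Plin2 siRNA array was above every scrambled array, and the changes of the partners differed by 0.03 ± 0.21 (SD, n = 3 pairs of arrays, Col4a1 minus Col4a2). Col4a5, an X-linked chain of the type IV collagen of kidney, inner ear and muscle, was 5.93, 5.76 and 5.72, against 5.31, 5.25 and 5.34, and rose by 0.50 (SE 0.11, adjusted p = 0.00874). With the Plin2 siRNA BSA array left out, the adjusted p was 0.092 for Col4a5 and 0.131 for Col4a2, and with the scrambled BSA array left out it was 0.0875 and 0.127. That of Col4a1 was 0.0583 without the Plin2 siRNA oleate array and 0.0532 without the scrambled oleate array. The other type IV genes, Col4a3, Col4a4 and Col4a6, had changes of 0.05, 0.05 and -0.13 and adjusted p of 0.617 or more.

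Type VI collagen genes moved in opposite directions. Col6a1, Col6a2 and Col6a3 encode the chains that join, one of each, into the type VI monomer, and mutations in any of the 3 cause congenital muscular dystrophy and Bethlem myopathy in humans. Col6a1 was 9.73, 9.87 and 9.69 with Plin2 siRNA, against 9.24, 9.48 and 9.30 with scrambled siRNA, and rose by 0.42 (SE 0.06, adjusted p = 0.000839). Col6a2 was 8.58, 8.81 and 8.52, against 8.32, 8.39 and 8.34, and rose by 0.29 (SE 0.08, adjusted p = 0.0228). Col6a3, the long chain whose C-terminal fragment is known as endotrophin, was 7.80, 7.77 and 7.70, against 8.18, 8.14 and 8.30, and fell by 0.45 (SE 0.08, adjusted p = 0.00258). In each of the 3 genes the siRNA groups were apart.

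The promoter windows of Col6a1 (chr10:76725995-76726294, minus strand) and Col6a3 (chr1:90843922-90844221, minus strand) are shown because these chains of 1 protein moved apart. Neither holds any of the 3 motifs, so neither has capitals.
Col6a1: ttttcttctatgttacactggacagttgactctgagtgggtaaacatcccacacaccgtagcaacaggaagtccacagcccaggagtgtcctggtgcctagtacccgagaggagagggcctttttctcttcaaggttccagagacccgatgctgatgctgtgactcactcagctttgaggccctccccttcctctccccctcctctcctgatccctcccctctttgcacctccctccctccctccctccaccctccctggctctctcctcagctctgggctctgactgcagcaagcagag
Col6a3: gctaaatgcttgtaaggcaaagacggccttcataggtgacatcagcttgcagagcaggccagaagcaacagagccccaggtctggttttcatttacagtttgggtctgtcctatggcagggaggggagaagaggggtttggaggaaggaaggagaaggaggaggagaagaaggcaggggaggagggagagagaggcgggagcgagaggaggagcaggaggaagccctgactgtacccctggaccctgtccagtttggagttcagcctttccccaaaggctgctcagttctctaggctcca

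The change of Col6a1 exceeded that of Col6a3 by 0.88 ± 0.11 (SD, n = 3 pairs), and that of Col6a2 exceeded it by 0.74 ± 0.08. An exact two-sided permutation test set the 3 Plin2 siRNA arrays against the 3 scrambled arrays in the difference between the chains' signals. It did not use the pairing by treatment, unlike the SD, and the same holds for the other partner comparisons. Its p was 0.1 for each, the smallest a test of 3 against 3 can give, and 0.35 after adjustment over 7 partner comparisons. The change of Col6a1 minus that of Col6a2 was 0.13 ± 0.15 (exact unpaired permutation p = 0.2). The adjusted p of Col6a2 was 0.123 without the Plin2 siRNA oleate array, 0.117 without the scrambled oleate array and 0.1 to 0.103 with either BSA array left out. Col6a4, Col6a5 and Col6a6, chains related to Col6a3, had changes of 0.04, 0.22 and 0.25 and were not called. The second probe sets of Col6a5 and Col6a6 had changes of 0.02 and 0.01.

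**Figure D2:**
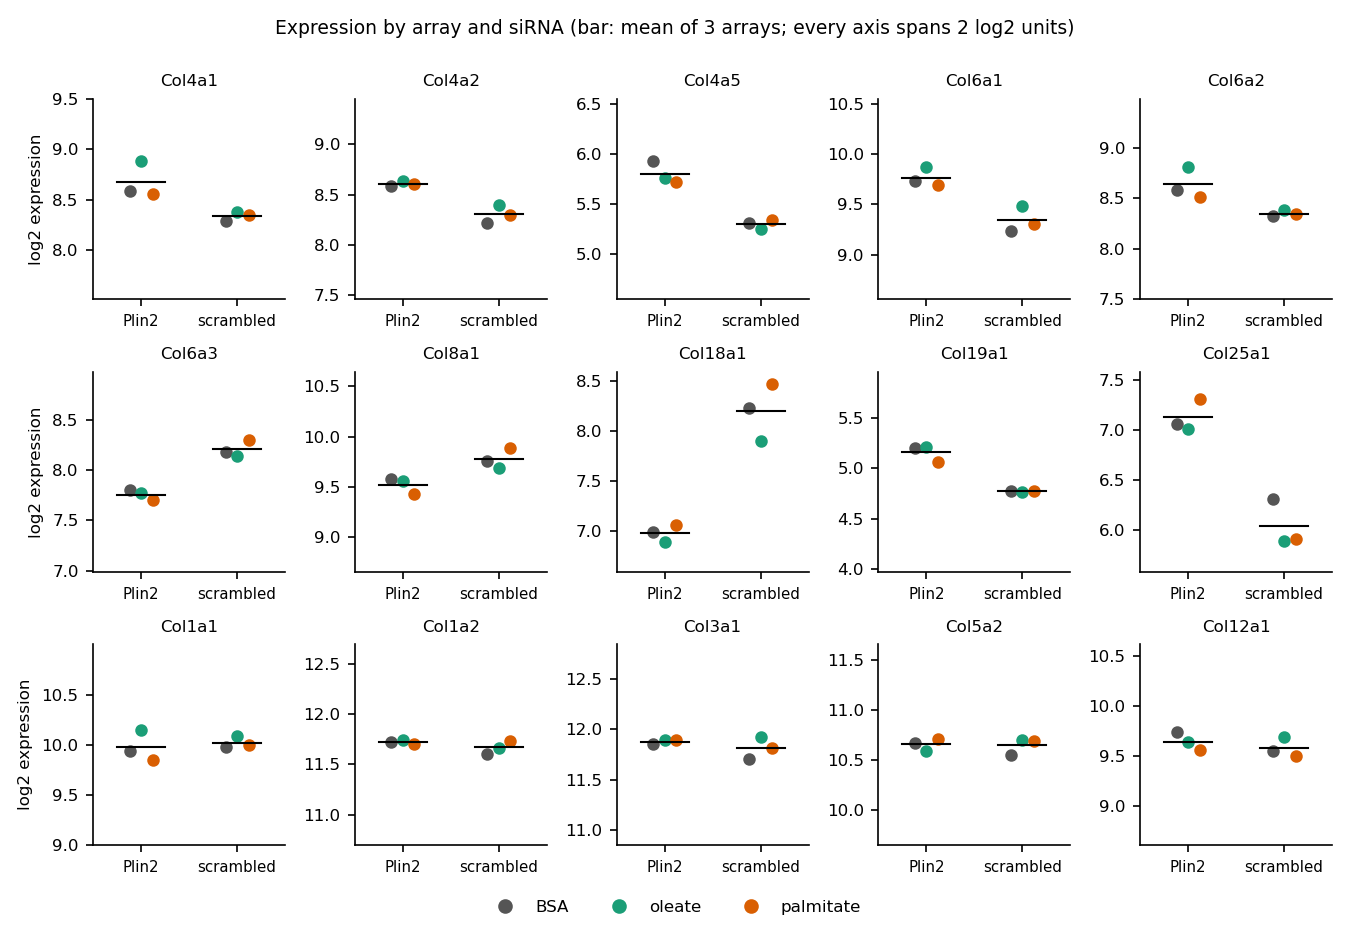
Log2 expression in each array for the 10 called collagen genes and 5 collagens of high signal that were not called, with Plin2 siRNA left of scrambled siRNA, BSA, oleate and palmitate in colour and a bar at the mean of 3 arrays. All 10 called genes have no overlap between the siRNAs, and Col1a1, Col1a2, Col3a1, Col5a2 and Col12a1 overlap.

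Col18a1 fell further than any other collagen gene. It encodes a basement membrane collagen of vessels, epithelia and muscle, whose C-terminal fragment is endostatin. Its signal was 6.996, 6.893 and 7.064 with Plin2 siRNA, against 8.222, 7.902 and 8.463 with scrambled siRNA, a fall of 1.21 or 2.32-fold (SE 0.09, adjusted p = 6.4e-06). The highest Plin2 siRNA array was below the lowest scrambled array. The gene has more than 1 start site in RefSeq, and the array signal does not tell which was used. Its downstream window (chr10:77113656-77113955, minus strand) has none of the motifs. Its upstream window (chr10:77166481-77166780, minus strand) has 1 CCAAT box and 3 GC boxes. Both are shown for the gene with the lowest change.
Col18a1 downstream start: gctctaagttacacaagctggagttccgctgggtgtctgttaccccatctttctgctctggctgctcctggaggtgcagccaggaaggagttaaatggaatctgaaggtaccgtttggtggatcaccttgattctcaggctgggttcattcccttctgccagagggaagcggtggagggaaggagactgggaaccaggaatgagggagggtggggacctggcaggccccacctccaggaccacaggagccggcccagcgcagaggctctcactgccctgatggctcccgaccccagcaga
Col18a1 upstream start: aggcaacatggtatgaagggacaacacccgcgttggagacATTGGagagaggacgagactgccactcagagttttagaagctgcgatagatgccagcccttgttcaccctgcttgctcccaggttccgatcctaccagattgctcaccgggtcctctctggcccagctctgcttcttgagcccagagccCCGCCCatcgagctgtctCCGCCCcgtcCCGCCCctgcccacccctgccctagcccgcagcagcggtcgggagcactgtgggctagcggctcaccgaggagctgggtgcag

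Col15a1, the other multiplexin and a muscle basement membrane collagen, was 5.51, 5.19 and 5.31 with Plin2 siRNA, against 5.11, 5.19 and 5.02 with scrambled siRNA. Its change of 0.23 was not called (adjusted p = 0.26). The groups did not overlap, but only narrowly, with the oleate arrays at 5.194 with Plin2 siRNA and 5.191 with scrambled siRNA.

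Col25a1 rose further than any other collagen gene. It encodes a transmembrane collagen that muscle needs in mouse embryos for the entry of motor axons. Its signal was 7.05, 7.01 and 7.31 with Plin2 siRNA, against 6.31, 5.89 and 5.91 with scrambled siRNA, a rise of 1.09 or 2.12-fold (SE 0.12, adjusted p = 0.000107). The lowest Plin2 siRNA array was above the highest scrambled array. The differences were 0.75 in BSA, 1.12 in oleate and 1.40 in palmitate. Its window (chr3:130180595-130180894, plus strand), shown for the gene with the highest change, has 1 CCAAT box and 2 GC boxes.
Col25a1: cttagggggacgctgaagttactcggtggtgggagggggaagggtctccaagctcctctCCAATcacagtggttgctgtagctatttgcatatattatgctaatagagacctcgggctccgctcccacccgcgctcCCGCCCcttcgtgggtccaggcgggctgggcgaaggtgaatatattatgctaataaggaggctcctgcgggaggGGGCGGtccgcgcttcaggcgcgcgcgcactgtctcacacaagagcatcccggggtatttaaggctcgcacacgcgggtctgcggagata

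Other membrane collagens were not called. Col23a1 was 6.46, 6.50 and 6.46 with Plin2 siRNA, against 6.73, 6.61 and 6.73 with scrambled siRNA, without overlap and with an adjusted p of 0.159. Col13a1, which takes part in forming the neuromuscular junction, and Col17a1, a collagen of skin hemidesmosomes, had changes of 0.07 and -0.10.

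Among the short-chain network collagens, Col8a1, a chain of a network best known from vessel walls and the cornea, was 9.58, 9.55 and 9.43 with Plin2 siRNA, against 9.76, 9.68 and 9.89 with scrambled siRNA. It fell by 0.26 (SE 0.08, adjusted p = 0.0386), with no overlap. The change was -0.15 with either palmitate array left out, with an adjusted p of 0.191 without the Plin2 siRNA array and 0.195 without the scrambled one. With either BSA array left out it was 0.0889 to 0.0893, and with arrays centred on their medians 0.0573. Its relative Col8a2 was 6.85, 6.48 and 6.80, against 6.89, 6.76 and 7.13, and had a change of -0.22 that was not called (adjusted p = 0.162). The change of Col8a1 minus that of Col8a2 was -0.04 ± 0.16 (SD, n = 3 pairs; exact unpaired permutation p = 0.9). Col10a1, a collagen of hypertrophic cartilage, had a change of -0.19 (adjusted p = 0.378).

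FACIT collagens had 1 of 9 called (11.1%), beside 17.1% of all named probe sets and 30.4% of those above the median level. Col19a1, a basement membrane zone collagen of low signal here, was 5.21, 5.21 and 5.06 with Plin2 siRNA, against 4.77, 4.77 and 4.77 with scrambled siRNA, and rose by 0.39 (SE 0.11, adjusted p = 0.0362). Its adjusted p was 0.201 and 0.199 without the Plin2 siRNA and the scrambled BSA array, and 0.133 and 0.13 without the Plin2 siRNA and the scrambled oleate array. Col12a1, which lies on the surface of type I fibrils and is mutated in a human myopathy, was 9.74, 9.64 and 9.56, against 9.55, 9.69 and 9.50, and the interval of its change was -0.09 to 0.22. Col14a1, a related fibril-surface collagen, was 6.64, 6.86 and 6.79, against 6.64, 6.85 and 6.50 (change 0.10, adjusted p = 0.631). Both had overlapping groups. The type IX chains, which decorate cartilage fibrils, were not called. Col9a1 was 5.16, 5.17 and 5.10 with Plin2 siRNA, against 5.11, 4.91 and 5.14 (change 0.09). Col9a2 was 6.67, 6.48 and 6.43, against 6.44, 6.29 and 6.77 (change 0.03), and Col9a3 was 6.78, 6.69 and 6.63, against 6.80, 6.46 and 6.90 (change -0.02), all with overlap between the siRNAs. Col22a1, a collagen of the muscle-tendon junction, had a change of -0.0014, and its interval was -0.23 to 0.23. Col16a1 and Col20a1 had changes of 0.02 and 0.06.

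The remaining genes were not called. Col7a1, the anchoring fibril collagen of skin, was 6.14, 6.17 and 6.18 with Plin2 siRNA, against 6.10, 5.94 and 6.18 with scrambled siRNA. Col26a1 was 6.43, 6.17 and 6.25, against 5.97, 6.15 and 5.98, without overlap (change 0.25, adjusted p = 0.18). Col28a1 was 5.69, 5.63 and 5.34, against 5.41, 5.21 and 5.46 (change 0.19, adjusted p = 0.391).

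Collagen genes lie in pairs at several places in the genome, and the 8 pairs with no protein-coding gene between them in GRCm38.p6 were compared. In 2 pairs, Col4a1 with Col4a2 and Col6a1 with Col6a2, both genes rose. In 4 pairs neither was called, and in 2 pairs 1 was called, Col19a1 beside Col9a1 and Col4a5 beside Col4a6. Over all named probe sets 17.1% were called, and 30.4% of those above the median level. Neighbouring pairs of other genes were not counted, and Col6a5 belongs to more than 1 of the pairs here. Col4a5 and Col4a6 are also read in opposite directions, and Col4a6 was 4.55, 4.83 and 4.53 with Plin2 siRNA, against 4.76, 4.66 and 4.87 with scrambled siRNA. Promoter windows were found for 35 of the 44 genes, 38 windows in all, and for all 10 called genes. A GC box was in 23 of the 38 (60.5%), beside 35.7% of 32851 windows of all genes. A CCAAT box was in 13 (34.2%), beside 37.4%, and a TATA box in 5 (13.2%), beside 13.6%. The median GC content was 59.9% in collagen windows and 52.7% in all windows.

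Genes that build collagen moved in both directions, and the cross-linking genes that passed the test fell. Of 22 genes of collagen synthesis and folding 5 rose and 4 fell, and their median change was -0.04. P4ha1, the catalytic subunit of prolyl 4-hydroxylase that stabilises the triple helix, was 10.05, 10.09 and 10.10 with Plin2 siRNA, against 10.70, 10.72 and 10.52 with scrambled siRNA, and fell by 0.57 (SE 0.07, adjusted p = 0.000132). P3h2, a prolyl 3-hydroxylase, and Plod2, the lysyl hydroxylase that prepares fibril ends for cross-linking, fell by 0.38 and 0.36. Crtap, a partner of the prolyl 3-hydroxylase complex, rose by 0.35, the dipeptidase Pepd, which recycles collagen proline, by 0.28 and the ER prolyl isomerase Fkbp14 by 0.27. Serpinh1, the collagen chaperone HSP47, had a change of -0.15 (adjusted p = 0.161).

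Of 14 genes of propeptide removal and cross-linking 4 fell and 0 rose, with a median of -0.13. Lox, the lysyl oxidase that cross-links fibrils, was 10.57, 10.48 and 10.54 with Plin2 siRNA, against 11.04, 11.15 and 11.31 with scrambled siRNA, and fell by 0.63 (SE 0.07, adjusted p = 7.44e-05). Tgm2, a transglutaminase, Adamts14, a procollagen N-proteinase, and Loxl4, a relative of Lox, fell by 0.58, 0.57 and 0.57. These 4 genes had no overlap between siRNAs.

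Of 10 collagen receptors 3 fell and 1 rose, with a median of -0.12. Adgrg1, an adhesion receptor that binds type III collagen, was 6.65, 6.32 and 6.40 with Plin2 siRNA, against 9.89, 9.08 and 9.68 with scrambled siRNA, a change of -3.10 (SE 0.10, adjusted p = 2.32e-08), and no named probe set had a lower change. Itga1, the alpha 1 integrin chain that binds type IV collagen, was 7.154, 7.326 and 7.072, against 6.001, 6.079 and 5.944, and rose by 1.18 (SE 0.09, adjusted p = 8.51e-06). Both genes had no overlap between siRNAs. The collagen receptor kinases Ddr1 and Ddr2 fell by 0.40 and 0.29.

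Fibril-associated proteins had 1 of 16 that rose and 4 that fell (median -0.08). Prelp, a leucine-rich proteoglycan that anchors basement membranes, rose by 0.80 (SE 0.06, adjusted p = 8.51e-06). Thbs2, a thrombospondin, fibronectin (Fn1), periostin (Postn) and Sparc, which binds collagen, fell by 0.47, 0.38, 0.25 and 0.17. In TGF-beta signalling, a pathway known to raise fibrillar collagen transcription, 3 of 19 genes rose and 4 fell (median -0.14). Ltbp2, Ccn2 and Skil fell by 0.72, 0.64 and 0.50, and Ltbp4, Smad4 and Ski rose by 0.41, 0.41 and 0.31. Ltbp2 and Ltbp4 are matrix proteins of the latent TGF-beta binding family, Ccn2 is a known target of the pathway, Smad4 its shared transcription factor, and Ski and Skil repress it. The share called in these 5 lists, 28.6% to 40.9%, stands beside 17.1% of all named probe sets and 30.4% of those above the median level.

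**Figure D3:**
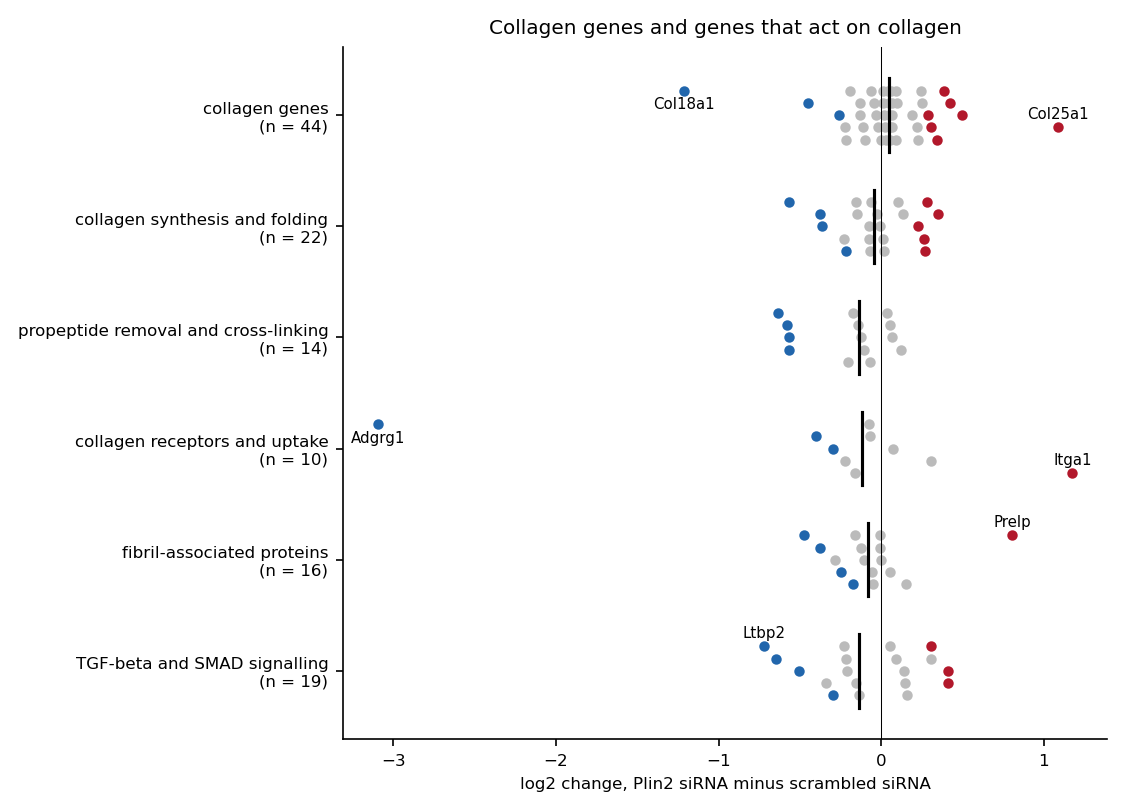
Log2 change, Plin2 siRNA minus scrambled siRNA, of the collagen genes and of 5 lists of genes that act on collagen. Each dot is a gene, red and blue dots are higher and lower calls, grey dots were not called and the bar is the median; the cross-linking list has 4 lower calls and 0 higher ones.

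Neither fatty acid changed a collagen gene at the threshold. For oleate against BSA, 0 of 44 were called, beside 0.0734% of all named probe sets, and 1 had an unadjusted p below 0.05. That gene was Col6a1, with an oleate minus BSA difference of 0.14 with Plin2 siRNA and 0.25 with scrambled siRNA (fitted change 0.19, adjusted p = 0.725). Fitted oleate changes ran from -0.29 to 0.22 with a median of -0.02, and the median of all named probe sets was -0.02. For palmitate against BSA, 0 of 44 were called, beside 0.00918% of all named probe sets, and 0 had an unadjusted p below 0.05. Fitted palmitate changes ran from -0.17 to 0.26. In the 5 lists of genes that act on collagen, 0 were called for either fatty acid. A fatty acid change is the mean of 2 differences, 1 for each siRNA, and its error is pooled over the fit of all 6 arrays. The 95% interval for palmitate was -0.21 to 0.14 for Col1a1 and -0.08 to 0.22 for Col3a1.

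Palmitate against oleate, the saturated against the monounsaturated fatty acid, called 0 of 44 collagen genes, beside 0.262% of all named probe sets. An unadjusted p below 0.05 was found for 6 genes (13.6%, beside 9.21% of all). Col18a1 had the lowest p of these. Its signal was 7.064 in palmitate and 6.893 in oleate with Plin2 siRNA, and 8.463 in palmitate and 7.902 in oleate with scrambled siRNA. The fitted palmitate minus oleate change was 0.37 (95% interval 0.12 to 0.61, adjusted p = 0.355). Col8a2 and Col10a1 were also higher in palmitate, by 0.34 and 0.35, and Col1a1, Col5a3 and Col6a1 had differences of -0.19, -0.24 and -0.18, all with adjusted p of 0.418 or more.

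The sign of the palmitate difference was not the same under the siRNAs. With Plin2 siRNA, palmitate was above BSA in 11 of 44 collagen genes with a median difference of -0.07. With scrambled siRNA it was above BSA in 39 of 44 (88.6%) with a median of 0.08. Over all named probe sets the shares were 46.1% and 50.1%. Of the 29 collagens above the median level, palmitate was above BSA in 10 (34.5%) with Plin2 siRNA and in 26 (89.7%) with scrambled siRNA, beside 52.4% and 39.6% of all named probe sets above that level. Of the 15 below it, the counts were 1 (6.67%) with Plin2 siRNA and 13 (86.7%) with scrambled siRNA, beside 39.9% and 60.6%. Among the 11 fibrillar genes palmitate was above BSA in 3 with Plin2 siRNA and in 11 with scrambled siRNA. The differences were small, -0.23 to 0.04 with Plin2 siRNA and 0.02 to 0.29 with scrambled siRNA. Each side rests on 1 palmitate array and 1 BSA array, so these counts have no test, and a shift of a single array cannot be told apart from an effect of palmitate.

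For oleate the counts were close, with 22 of 44 above BSA with Plin2 siRNA and 21 of 44 with scrambled siRNA. The shares of all named probe sets were 48.7% and 43.3%. Of the palmitate minus oleate differences, 14 of 44 (31.8%) were above 0 with Plin2 siRNA, with a median of -0.06. With scrambled siRNA 31 of 44 (70.5%) were above 0, with a median of 0.13. Over all named probe sets these shares were 47.6% and 56.7%. Among those below the median level they were 47.5% and 66.8%, and among those above it 47.7% and 46.6%. An interaction model asked whether the siRNA change differed between arrays with any fatty acid and the BSA arrays. In limma it called 0 collagen genes, beside 0.0% of all named probe sets, and an unadjusted p below 0.05 was found for 0 collagens and 551 named probe sets. The median interaction was -0.11 for collagens and 0.01 for all named probe sets. Col25a1 had an interaction of 0.51 (adjusted p = 1.0), with a 95% interval of -0.0002 to 1.0215.

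**Figure D4:**
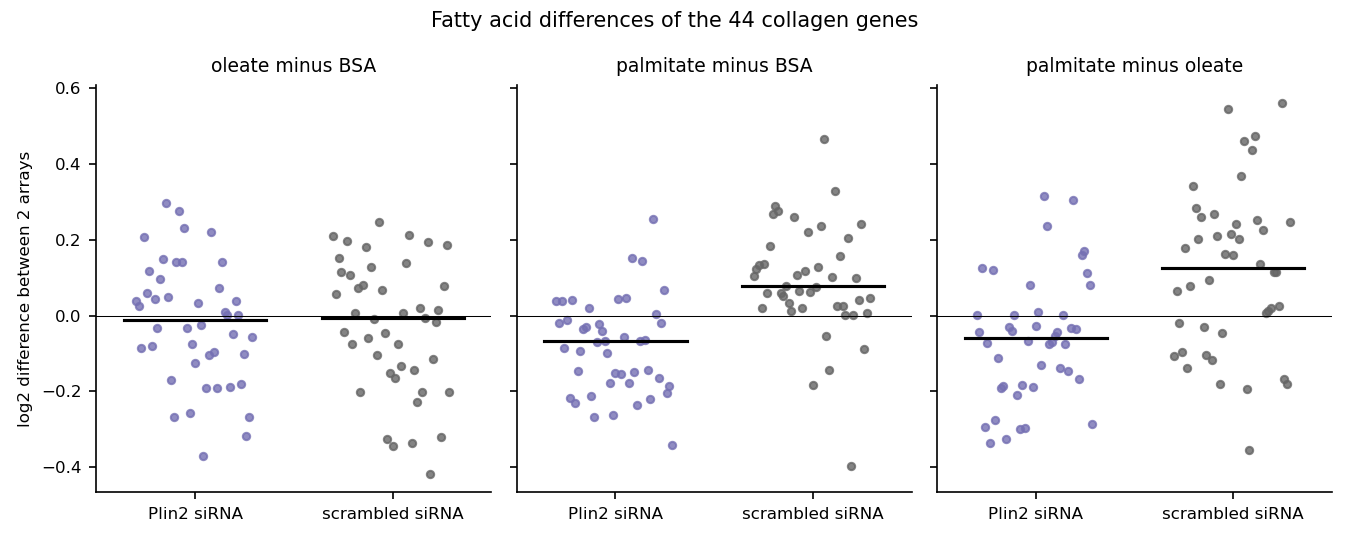
Log2 differences between 2 arrays for the 44 collagen genes, oleate minus BSA, palmitate minus BSA and palmitate minus oleate, with Plin2 siRNA left of scrambled siRNA and a bar at the median. In the palmitate minus BSA panel 11 of 44 genes are above 0 with Plin2 siRNA and 39 of 44 with scrambled siRNA.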

How the data were processed

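Total RNA of 6 samples was read on Affymetrix whole-transcript arrays, 1 array per condition. The authors deposited 1 log2 value per probe set and array, made with RMA, per the submitters' processing notes. Its version and a genome build were not given in the sources used here. Of 35556 probe sets, 21789 had 1 gene symbol in the platform annotation, 1621 had several and 12146 were unnamed here. By Entrez ID 21698 matched a RefSeq gene table (GRCm38.p6), and 0 symbols changed. Promoter sequences and coordinates are RefSeq's, from that assembly.

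Values were used as deposited, with no filter. In R 4.3.3, limma 3.58.1 fitted siRNA and treatment as additive terms (lmFit, then eBayes with an intensity trend), with 2 residual degrees of freedom and 9.21 borrowed across probe sets. The interaction model left 1. P-values were adjusted by Benjamini-Hochberg over the 21789 named probe sets. The number of arrays limits the precision. The fit was tested on simulated data.

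Values in every array are given for called collagens, for the 2 of highest mean in each class and for partner chains of 1 heterotrimer. From each other list up to 6 called genes are named by size of change. The members and lists were chosen with earlier results of these data known. Alternatives were no intensity trend, all 35556 probe sets in the fit and its adjustment, and a filter on the lowest 33.3% by mean. Others were quantile normalization, centring of arrays, the mean of a gene's probe sets and each array left out. Genes of these lists without a probe set tied to 1 symbol were not analysed here.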

Additional observations from a re-analysis of the deposited data

How the results depend on the processing

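The number of collagen genes called for Plin2 siRNA was 10. It was 6 with no intensity trend and 4 with all probe sets in the fit, unnamed ones and those of several symbols too. Each array left out in turn gave 5 to 10, with 5 when either BSA array was left out. It was 9 with centred arrays and 10 under the other 3 settings. Calls over all probe sets were 3721 in the main fit, 2403 with no intensity trend and 2159 with all probe sets in the fit. They were 2213 to 2215 without either BSA array. Of the 10 called genes 4 stayed past the threshold in all 12 alternatives, 6 lost it in at least 1, and 0 reversed; the cause was not tested. For palmitate against oleate the count was 0, and 0 to 1 when each array was left out. For oleate, palmitate and the interaction it was 0 in every alternative run. Leaving out an oleate or palmitate array left 1 array with that fatty acid. For the siRNA changes, leaving out either array of a treatment was the same check, so the 12 alternatives were not all separate. Array centring and quantile normalization reversed no called change. The labels carry no replicate numbers, so no block by number was fitted; the siRNA comparison is paired by treatment, and the fatty acid comparisons by siRNA, through the terms of the fit.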
